A study of Mus musculus with 9 samples.

Results

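The genes described here are 10 markers of resident Kupffer cells, taken by their symbols from a deposited table of 16755 genes in mouse liver. They are Clec4f, Timd4, Vsig4, Cd5l, Marco, Folr2, Cd163, Adgre1, Csf1r and Mrc1, and all 10 were found. Kupffer cells are the macrophages of the liver sinusoids. They settle before birth, renew themselves locally, and clear bacteria, old blood cells and modified lipoproteins from portal blood with scavenger, lectin and complement receptors. Their survival depends on signaling through CSF1R, and when resident cells are lost in steatohepatitis or other injury, monocytes from blood can take their place and acquire the same markers step by step.

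Each marker has 1 value in each of 3 groups of mice, of strain C57BL/6 by the labels and C57BL/6J by the study's methods. All mice carried Scd2 with a floxed exon (Scd2f/f), and the study's methods describe males. The control group was liver of 3 untreated Scd2f/f mice, whose age the labels do not give. The other groups were 3 Scd2f/f mice and 3 Scd2f/f;Col1a1-Cre mice (Scd2f/f;CC, whose tissue is called CC TAL here), in which Cre is driven by the Col1a1 promoter and so deletes Scd2 in cells that express Col1a1, mainly activated hepatic stellate cells (HSC) and portal fibroblasts. Both had been injected with diethyl nitrosamine (DEN), a hepatic carcinogen, with 10 mg/kg at an age of 2 weeks, and received a Western alcohol diet (WAD), rich in fat and cholesterol and given with ethanol, once they were 6 weeks old, for 4 months per the labels and for longer per the study's methods. The study calls this tissue tumor-adjacent liver (TAL) in its results and NTL, which it does not spell out, in its sequencing methods. The labels say liver. By the study's account, TAL held microscopic tumors but no evident visible ones. DEN, WAD and the site of sampling differ together, so their parts in a difference from control liver cannot be told apart.

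The values are the authors' least-squares means of normalized counts, 1 per group, so the depth of each library is unknown and no spread between mice could be computed. From 1 mean per group no test across the 3 mice of a group could be computed, and the authors' own test columns were not used, so whether a difference exceeds the spread between mice was not tested here. All ratios below were computed from these means. In bulk tissue, fewer cells of a type and less RNA per cell cannot be told apart. The targeted gene, Scd2, had a mean of 2.46 in control liver, 6.47 in Scd2f/f TAL and 1.87 in CC TAL, a ratio of 0.289 between the genotypes. The upper quartile of the means was 15.5 in control liver, 15.5 in Scd2f/f TAL and 15.4 in CC TAL. Because the authors normalized the counts by upper quartile, this likeness follows largely from that step. The means of all genes summed to 820600, 658300 and 739700 in the same groups. The median log2 ratio of the 11784 genes whose mean over the groups reached 1 (detected genes) was at most 0.04 from 0 in every comparison.

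The first comparison asks how the Kupffer cell markers stood in Scd2f/f TAL after DEN and WAD against control liver. Of the 10 markers, 9 were higher in Scd2f/f TAL, 8 of them by at least 2-fold and 0 lower by at least 2-fold. Among all 11784 detected genes, 52.7% were higher by any amount, 6.40% were higher and 2.89% were lower by at least 2-fold. The median log2 ratio of the markers was 1.77, a ratio of 3.42, beside 0.03 for all of these genes. The exceptions were Mrc1, with a ratio of 1.52, and Cd163, which had a lower mean in Scd2f/f TAL.

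**Figure D1:**
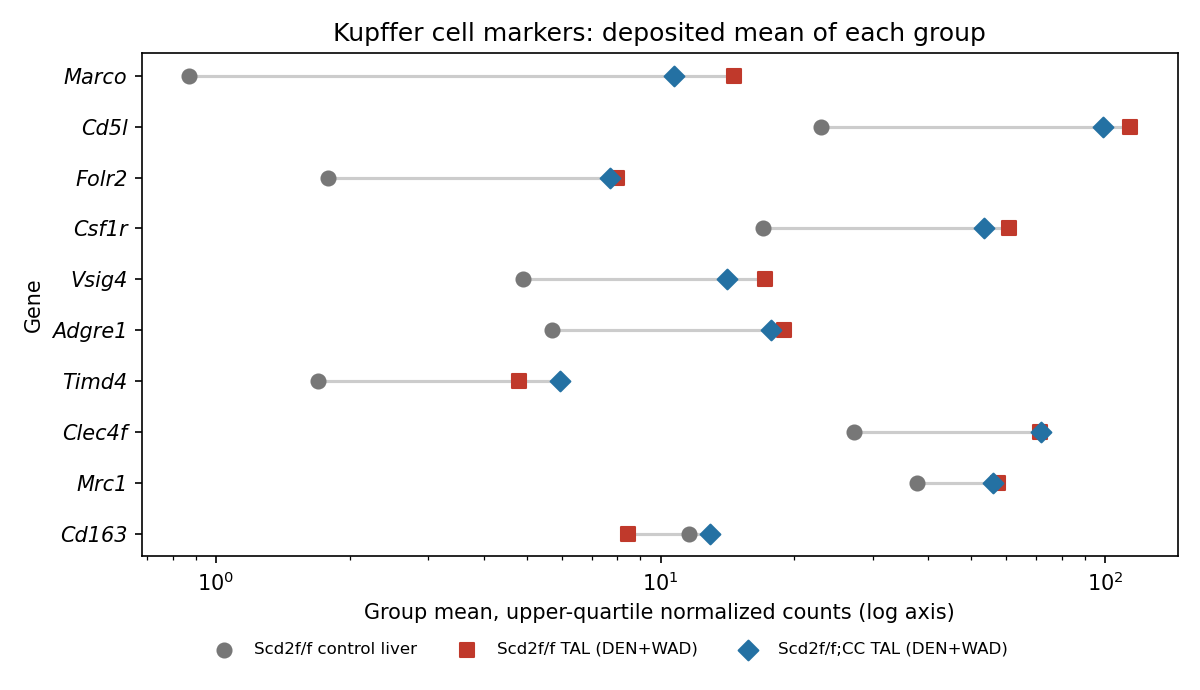
Mean of each group (x axis, upper-quartile normalized counts, log scale) for the 10 Kupffer cell markers (y axis), ordered by how Scd2f/f TAL compared with control liver. Each symbol is 1 deposited group mean without an error, and the control mean lies left of both TAL means for every marker except Cd163, whose Scd2f/f TAL mean of 8.44 is the lowest of its 3.

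Clec4f, a C-type lectin that in mouse liver marks Kupffer cells and binds galactose-bearing glycans, had a mean of 27.3 in control liver, 71.2 in Scd2f/f TAL and 71.7 in CC TAL. The means of both TAL groups were thus nearly the same and 2.61 and 2.63 times that of control liver. Clec4f is a minus-strand gene of chromosome 6, from 83644542 to 83656187 (GRCm38, as for all positions here), and its longest transcript has 7 exons. Timd4, the phosphatidylserine receptor TIM4 with which long-lived resident macrophages take up dying cells, had a mean of 1.7 in control liver, 4.81 in Scd2f/f TAL and 5.94 in CC TAL. It is a plus-strand gene of chromosome 11, from 46810800 to 46844332. The Timd4 mean of Scd2f/f TAL was 2.83 times that of control liver, and its mean in CC TAL was 1.24 times that of Scd2f/f TAL. Clec4f and Timd4 were the only markers with the order control liver, Scd2f/f TAL, CC TAL from low to high, an order that 19.7% of all detected genes also had. Vsig4, the complement receptor CRIg that captures opsonized bacteria, had a mean of 4.9 in control liver, 17.2 in Scd2f/f TAL and 14.1 in CC TAL. Vsig4, a minus-strand gene of chromosome X, from 96247203 to 96293438, had a ratio of 3.51 between Scd2f/f TAL and control liver.

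Among scavenger receptors and secreted scavenger proteins, Marco and Cd163 stood at opposite ends. Marco, a class A scavenger receptor for bacteria and particles, had a mean of 0.87 in control liver, 14.6 in Scd2f/f TAL and 10.7 in CC TAL. Its ratio of 16.8 between Scd2f/f TAL and control liver ranked 8 among the 11784 genes, counted from the highest, and when 1 was added to each mean its log2 ratio went from 4.07 to 3.06. Marco is a minus-strand gene of chromosome 1, from 120474538 to 120505024 and has 17 exons in its longest transcript. Cd5l, which encodes AIM, an apoptosis inhibitor that macrophages secrete under control of the liver X receptor, had a mean of 22.9 in control liver, 114 in Scd2f/f TAL and 99 in CC TAL. Its ratio of 4.98 ranked 88, and it lies on chromosome 3 from 87357881 to 87371073. Cd163, the receptor for hemoglobin bound to haptoglobin, had a mean of 11.6 in control liver, 8.44 in Scd2f/f TAL and 12.9 in CC TAL. Its ratio of 0.728 ranked 10277. Cd163 lies on chromosome 6 from 124304656 to 124330527, on the other strand from Clec4f. Mrc1, the mannose receptor CD206, which liver sinusoidal endothelial cells also make, had a mean of 37.8 in control liver, 57.5 in Scd2f/f TAL and 55.9 in CC TAL, and it lies on chromosome 2 from 14229392 to 14332057.

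The remaining markers are a vitamin receptor, an adhesion receptor and a growth factor receptor. Folr2, folate receptor beta of tissue-resident macrophages, had a mean of 1.79 in control liver, 7.99 in Scd2f/f TAL and 7.7 in CC TAL, ratios to control liver of 4.46 and 4.30. It lies on chromosome 7 from 101839988 to 101857194. Adgre1, an adhesion receptor that serves as a surface marker of mature mouse macrophages, had a mean of 5.7 in control liver, 19 in Scd2f/f TAL and 17.7 in CC TAL. It lies on chromosome 17 from 57358686 to 57483529, and monocyte-derived macrophages express it as well. Csf1r, the receptor for CSF1 and IL34 and a gene of all mononuclear phagocytes, had a mean of 17 in control liver, 60.8 in Scd2f/f TAL and 53.5 in CC TAL. It lies on chromosome 18 from 61105572 to 61132149 and has 21 exons in its longest transcript. Without Adgre1, Csf1r and Mrc1, which are the least restricted to Kupffer cells, the median log2 ratio of the other 7 markers between Scd2f/f TAL and control liver was 1.81.

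The second comparison, CC TAL against Scd2f/f TAL, asks whether the markers differed with deletion of Scd2 in Col1a1-expressing cells. Of the 10 markers, 0 were higher and 0 were lower by at least 2-fold, beside 0.645% higher and 1.54% lower among all detected genes. With a fold of at least 1.5, Cd163 was higher and 0 were lower, beside 2.35% higher and 4.90% lower among all of these genes. The median log2 ratio was -0.08, beside 0.01 for all genes. Individual ratios ran from 0.733 for Marco to 1.53 for Cd163. In all, 7 markers had a lower mean in CC TAL, Marco, Vsig4 at 0.820, Cd5l at 0.868, Csf1r at 0.880, Adgre1 at 0.932, Folr2 at 0.964 and Mrc1 at 0.972, and 3 had a higher one, Clec4f at 1.01, Timd4 at 1.24 and Cd163. Of all detected genes, 48.4% were lower and 50.6% higher there. Both comparisons use the same Scd2f/f TAL mean, so an error in that mean moves the ratios of a gene in opposite directions, and Marco and Cd163 lay at opposite ends in both.

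Set against control liver directly, CC TAL had a higher mean of all 10 markers, 8 of them by at least 2-fold and 0 lower by that fold, beside 4.51% higher and 2.55% lower by 2-fold among all detected genes, of which 54.3% were higher by any amount. The median log2 ratio was 1.64, beside 0.04 for all of these genes. Marco again had the highest ratio, 12.3, and ranked 7. Cd163 had the lowest, 1.11, and Mrc1 followed at 1.48. For 7 markers the means stood, from low to high, in the order control liver, CC TAL, Scd2f/f TAL, an order that 24.4% of all genes had. Cd163 alone among the markers had the order Scd2f/f TAL, control liver, CC TAL, as did 9.28% of all genes.

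Levels of different genes were compared per kb of the longest annotated transcript, since the means were not divided by length. In control liver, Cd5l, at 11.3 normalized counts per kb, and Clec4f, at 11.1, stood at nearly the same level, and Mrc1 followed at 7.03. Csf1r, Vsig4 and Cd163 lay between 3.62 and 2.61, and Adgre1, Folr2, Timd4 and Marco between 1.76 and 0.452 normalized counts per kb. In Scd2f/f TAL, Cd5l had 56.0 normalized counts per kb, above the 28.8 of Clec4f, and Csf1r and Vsig4, at 12.9 and 12.0, stood above Mrc1, at 10.7. Marco was last in control liver and the sixth in Scd2f/f TAL, at 7.58 normalized counts per kb, and Cd163 was last there, at 1.90. Summed over the 10 markers, the level per kb was 43.5 in control liver, 145 in Scd2f/f TAL and 132 in CC TAL. The spread between mice is unknown, so neighbors in these orders, such as Cd5l and Clec4f in control liver, cannot be said to differ.

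**Figure D2:**
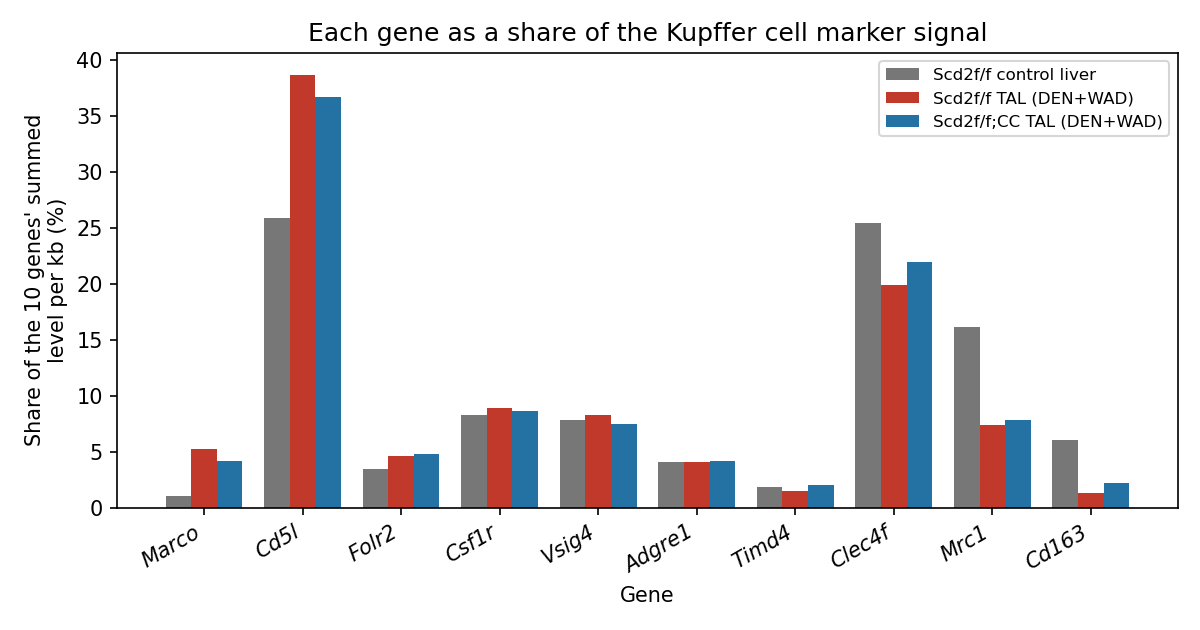
Share of each marker (y axis, %) in the summed level per kb of the 10 Kupffer cell markers, by group, in the order of the plot of group means. Cd5l holds 25.9% in control liver and 38.7% in Scd2f/f TAL, while the share of Mrc1 is 16.2% and 7.40% and that of Cd163 6.01% and 1.31%.

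A ratio of 2 genes within a group cancels any scaling of that group, so the markers were also set against Clec4f. Marco and Cd163 went in opposite directions on this scale, though the spread between mice is unknown here too. Relative to the Clec4f mean of the same group, Marco was 0.0319 in control liver, 0.205 in Scd2f/f TAL and 0.149 in CC TAL. Cd163 relative to Clec4f was 0.425, 0.119 and 0.180 in the same groups, and Mrc1 was 1.39, 0.808 and 0.780. Cd5l was 0.839, 1.60 and 1.38 relative to Clec4f. Timd4 differed least against Clec4f between control liver and Scd2f/f TAL, with 0.0623 and 0.0676, and had 0.0829 in CC TAL. Vsig4, at 0.180, 0.242 and 0.197, and Adgre1, at 0.209, 0.267 and 0.247, stayed closer to Clec4f than Marco or Cd163 did.

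**Figure D3:**
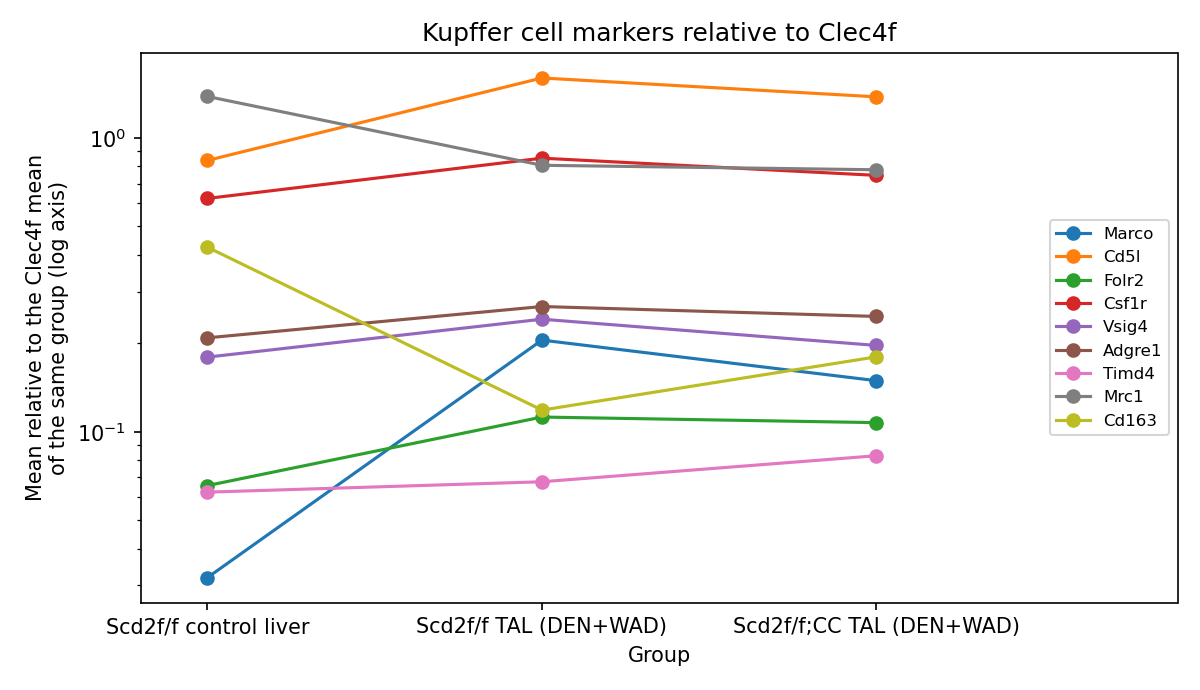
Mean of each of 9 Kupffer cell markers divided by the Clec4f mean of the same group (y axis, log scale) in the 3 groups (x axis). Lines join the values of 1 gene, and the line of Marco goes up from 0.0319 to 0.205 between control liver and Scd2f/f TAL where that of Cd163 goes down from 0.425 to 0.119.

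Another 15 genes enriched in Kupffer cells were counted beside the markers. Of these, 14 were higher in Scd2f/f TAL than in control liver, 9 by at least 2-fold, with a median log2 ratio of 1.68. C1qc, a chain of the complement component C1q, had the highest ratio, 4.72, beside 4.08 for C1qa and 4.71 for C1qb, which encode the other chains and were named after their values were seen. C6, a complement component that hepatocytes also make, had the lowest, 0.964. Between CC TAL and Scd2f/f TAL the median log2 ratio was -0.16, and 12 of the 15 were lower and 3 higher. C1qa, C1qb and C1qc were among the lower ones, with ratios of 0.696, 0.689 and 0.695. Pcolce2 had the highest ratio, 1.26. Siglec1, the sialic acid receptor CD169, also named after its values were seen, was another of the 3 higher ones. Its means were 4.54 in control liver, 14.5 in Scd2f/f TAL and 15.3 in CC TAL. The lowest was Cd207, which encodes langerin, a lectin of Langerhans cells and some other phagocytes, with means of 3.31, 3.55 and 0.999 and a ratio of 0.281 between the genotypes. Cd207 was the 1 gene of this list lower by at least 2-fold in that comparison.

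Of 12 transcription factors of macrophage and Kupffer cell identity, 9 were higher in Scd2f/f TAL than in control liver, 5 by at least 2-fold, and the median log2 ratio was 0.89. Spi1, which encodes PU.1, the factor that myeloid cells require, had a mean of 0.976 in control liver, 5.3 in Scd2f/f TAL and 3.76 in CC TAL. Nr1h3, the liver X receptor alpha needed for Kupffer cell identity and also expressed by hepatocytes, was named after its values were seen and had means of 33.5, 32.5 and 32.7. Between the genotypes, Id3, a Kupffer cell regulator also made by other cells, had the lowest ratio, 0.552, and the median log2 ratio was -0.33.

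CSF1 and IL34, the ligands of CSF1R, maintain Kupffer cells together with other niche signals. Csf1 had a mean of 5.25 in control liver, 7.34 in Scd2f/f TAL and 5.75 in CC TAL, while Il34 had means of 0.684, 0.798 and 0.493. Between control liver and Scd2f/f TAL the ratio was thus 1.40 for Csf1 and 1.17 for Il34, beside 3.58 for their receptor. Of 15 niche signals and their receptors, 12 were higher in Scd2f/f TAL than in control liver, 2 by at least 2-fold, with a median log2 ratio of 0.36. Acvrl1, the receptor ALK1 for BMP9 and BMP10, had the highest ratio, 2.62, and Tgfbr2 the lowest, 0.740. Between the genotypes, 13 of the 15 were lower in CC TAL and 0 differed by at least 2-fold. Gdf2, which encodes BMP9, a product of HSC, had the lowest ratio among those detected, 0.719, and Bmp10 the highest, 1.24.

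Markers of other cells also differed between the groups, and their part in the results was not tested. All 9 pan-macrophage and leukocyte genes were higher by at least 2-fold in Scd2f/f TAL than in control liver, from Tyrobp at 3.18 to Cybb, a subunit of the phagocyte NADPH oxidase, at 6.11, with a median log2 ratio of 2.22. All 11 genes of monocytes and recruited macrophages were higher, 10 by at least 2-fold, with a median of 2.05. Of these 11 genes, 8 were detected. Among those detected, Itgax, the integrin CD11c, had the highest ratio, 15.6. The summed mean of these 11 genes was 29.9 in control liver, 128 in Scd2f/f TAL and 76.9 in CC TAL. The sums of the 10 Kupffer cell markers were 131.6, 375.5 and 349.1. Between the genotypes the ratio of the sums was therefore 0.601 for the monocyte list, where Lyz2, lysozyme, holds most of the sum, with means of 24.9, 107 and 63.7, and 0.930 for the Kupffer cell markers. Cx3cr1, a chemokine receptor of monocytes and their progeny, had the lowest ratio, 0.190. Of the 9 pan-macrophage genes, all were lower in CC TAL, from Cd14 at 0.433 to Laptm5 at 0.796. The median log2 ratio between the genotypes was -0.56 for the pan-macrophage genes, -0.34 for the monocyte genes and -0.08 for the Kupffer cell markers. For the 8 monocyte genes that were detected, the median was -0.54. A difference between the lists was not tested.

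Liver sinusoidal endothelial cells share Mrc1 with Kupffer cells. Of 9 endothelial markers, 8 were in the table, and all of these were higher in Scd2f/f TAL than in control liver, with a median log2 ratio of 0.32, beside 0.61 for Mrc1. Stab1 had the lowest ratio, 1.04, and Lyve1 the highest, 2.54, the only one of at least 2-fold. Between the genotypes, Lyve1 had the lowest ratio, 0.521, Kdr had the highest, 1.15, and the median log2 ratio was 0.02. Of the 6 hepatocyte markers, 5 were lower in Scd2f/f TAL than in control liver, with a median log2 ratio of -0.20. The lowest ratio was that of Tat, 0.363, and the highest that of Ttr, 1.01. Between the genotypes 5 of the 6 were higher in CC TAL, with a median log2 ratio of 0.27. The lowest ratio was that of Hnf4a, 0.930, and the highest that of Tat, 1.69. Alb, albumin, named after its values were seen, had means of 21300 in control liver, 20900 in Scd2f/f TAL and 22700 in CC TAL. Of the 7 HSC markers, all were lower in CC TAL than in Scd2f/f TAL, with Pdgfrb lowest at 0.479 and a median log2 ratio of -0.36.

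**Figure D4:**
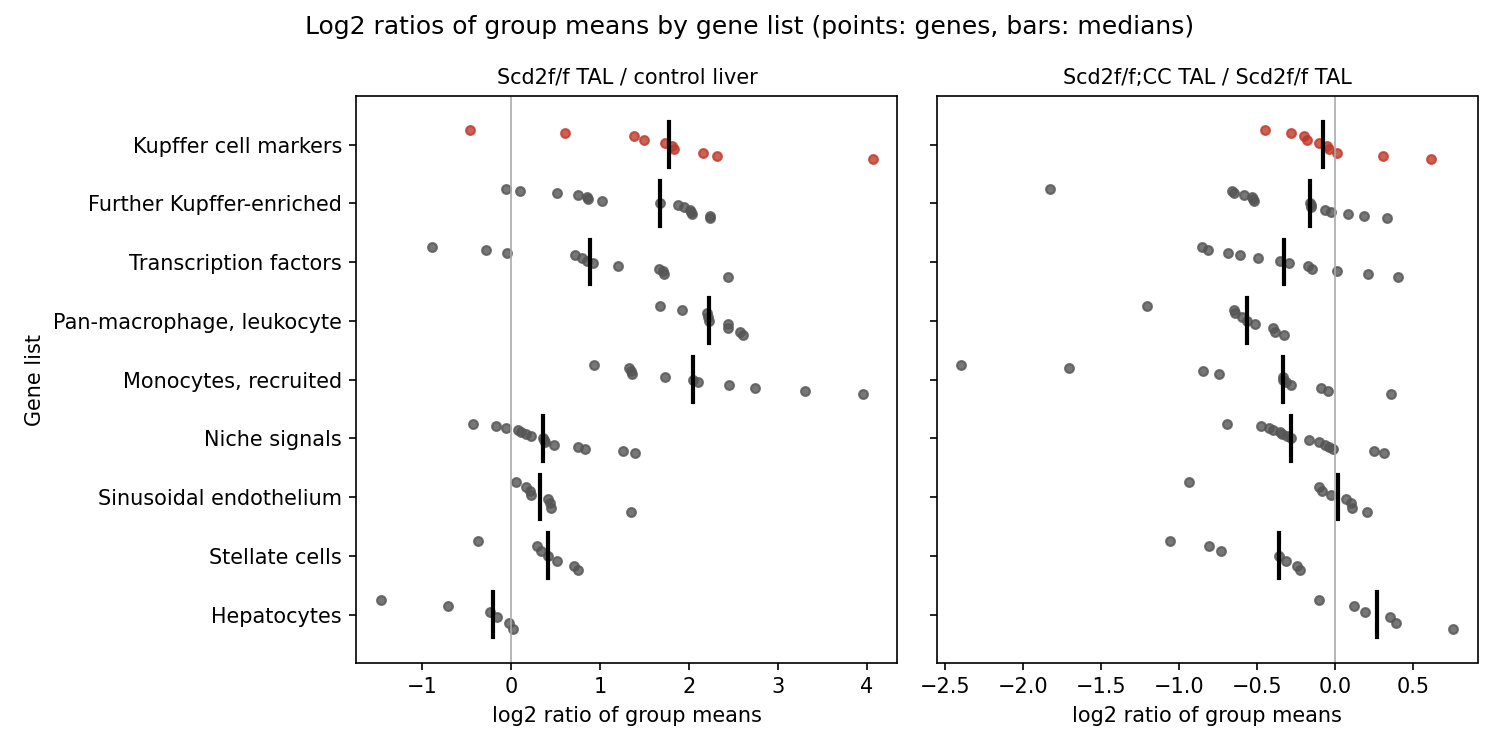
Log2 ratio of group means (x axis) for each gene of 9 lists (y axis), between Scd2f/f TAL and control liver on the left and between CC TAL and Scd2f/f TAL on the right, with a bar at the median. On the left the Kupffer cell markers center on 1.77. The pan-macrophage, monocyte and further Kupffer-enriched lists center there on 2.22, 2.05 and 1.68, and the endothelial, HSC and hepatocyte lists on 0.32, 0.42 and -0.20. On the right the Kupffer cell markers center on -0.08 and the pan-macrophage genes on -0.56. The further Kupffer-enriched, transcription factor and monocyte lists center there on -0.16, -0.33 and -0.34. The endothelial, HSC and hepatocyte lists center there on 0.02, -0.36 and 0.27.

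The genes most like the markers were sought by the Euclidean distance of their log2 ratios, for DEN and WAD and for Scd2 deletion, from the medians of the markers, among detected genes. The nearest 5 were Slfn9, Pira2, Ifi209, Arrdc3 and Klrk1, with distances from 0.03 to 0.06. Arrdc3 had means of 61.8, 214 and 210 in control liver, Scd2f/f TAL and CC TAL. Slfn9, the nearest, had means of 1.41, 4.71 and 4.48, and Klrk1, the receptor NKG2D of natural killer and T cells, 0.564, 1.89 and 1.73. This likeness rests on 3 group means.

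The stretch around the start sites of the markers was searched for motifs. The 8 markers with a sequence are not the 8 that were higher by at least 2-fold in Scd2f/f TAL, since they include Cd163 and Mrc1. RefSeq promoter sequences on GRCm38.p6, from 250 bases before to 50 bases after the start, were matched by symbol for 8 of the 10 markers, without Adgre1 and Csf1r, and Folr2 had 2 starts. On both strands, 4 motifs were searched: GAGGAA, the core of a PU.1 site, TGCTGA, part of the site of MAF factors, TGGGAA, the core of an RBPJ site, and TATAAA, the TATA box. No match overlapped another in the promoters of the markers. The promoters below are those of Clec4f, the most restricted marker, of Vsig4 and Cd5l, with several matches, of Marco, with the highest ratio, and of Cd163, with the lowest. They are written 5′ to 3′ along the gene, and capitals mark the matches, as the reverse complement where the motif is on the other strand.
Clec4f, GRCm38.p6 chr6:83656067-83656366, minus strand: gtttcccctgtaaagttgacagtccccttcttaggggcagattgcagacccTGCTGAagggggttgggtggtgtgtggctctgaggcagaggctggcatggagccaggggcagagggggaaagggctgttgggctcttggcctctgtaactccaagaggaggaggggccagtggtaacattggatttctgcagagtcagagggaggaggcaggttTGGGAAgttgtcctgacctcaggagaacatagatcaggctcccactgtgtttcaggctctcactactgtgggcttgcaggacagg
Vsig4, GRCm38.p6 chrX:96293389-96293688, minus strand: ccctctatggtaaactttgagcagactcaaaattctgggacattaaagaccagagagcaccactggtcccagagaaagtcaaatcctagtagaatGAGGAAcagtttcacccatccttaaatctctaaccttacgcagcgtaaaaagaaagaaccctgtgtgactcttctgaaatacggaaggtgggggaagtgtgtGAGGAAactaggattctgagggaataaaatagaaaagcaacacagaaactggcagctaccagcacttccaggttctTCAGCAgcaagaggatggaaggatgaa
Cd5l, GRCm38.p6 chr3:87357631-87357930, plus strand: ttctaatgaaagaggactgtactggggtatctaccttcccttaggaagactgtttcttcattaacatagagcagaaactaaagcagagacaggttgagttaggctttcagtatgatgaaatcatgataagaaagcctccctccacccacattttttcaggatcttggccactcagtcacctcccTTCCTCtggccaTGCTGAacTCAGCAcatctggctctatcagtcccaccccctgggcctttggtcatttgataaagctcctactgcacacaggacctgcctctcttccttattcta
Marco, GRCm38.p6 chr1:120504975-120505274, minus strand: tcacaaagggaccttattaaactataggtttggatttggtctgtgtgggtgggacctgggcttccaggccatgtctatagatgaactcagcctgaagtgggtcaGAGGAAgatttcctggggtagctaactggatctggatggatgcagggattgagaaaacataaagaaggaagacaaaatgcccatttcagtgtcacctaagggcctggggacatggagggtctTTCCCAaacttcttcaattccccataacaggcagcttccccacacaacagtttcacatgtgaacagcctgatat
Cd163, GRCm38.p6 chr6:124304401-124304700, plus strand: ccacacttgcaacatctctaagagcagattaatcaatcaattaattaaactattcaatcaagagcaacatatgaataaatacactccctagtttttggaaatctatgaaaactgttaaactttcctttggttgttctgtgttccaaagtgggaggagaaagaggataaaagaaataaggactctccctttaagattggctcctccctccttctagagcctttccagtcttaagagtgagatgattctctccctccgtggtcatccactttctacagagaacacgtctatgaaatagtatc
TGCTGA was in the promoters of 5 of the 8 markers, Clec4f, Timd4, Vsig4, Cd5l and Folr2, and in 19.5% of all 32851 promoters of the same length. GAGGAA was in 4 of 8, Vsig4, Cd5l, Marco and Mrc1, beside 28.3% of all, and TGGGAA was in Clec4f and Marco, 2 of 8, beside 25.6%. TATAAA was in 0 of 8, beside 13.6%. In Cd5l, GAGGAA on the other strand began at base -66 and TGCTGA at base -54 and, on the other strand, at base -46 from the start, and in Vsig4 GAGGAA began at bases -155 and -53. The Cd163 promoter held 0 matches to these letters in this window. These matches are descriptions of the sequence, and binding was not measured.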

How the data were processed

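RNA was isolated from liver with a PicoPure kit and sequenced from TruSeq polyA libraries of 9 mice, 3 per group by the labels. Per the study's methods and the submitters' processing notes, the authors aligned reads to mm10 with STAR 2.6.1, quantified them on Gencode M3 by the Partek E/M method (Partek 6), normalized by upper quartile and ran Gene Specific Analysis. The deposited signal is the least-squares mean of normalized counts per group, in 3 significant digits, so depth and precision per sample are unknown. Whether it is an arithmetic mean or one on a log scale is not given in the sources used here. The deposited table has 18 columns. For 2 comparisons it also holds the authors' p-values, false discovery rates, ratios and fold changes, which were not used. The number of per-sample columns left out was 0. The Scd2f/f TAL mean occurs in both comparisons, with equal values for all 16755 genes.

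Ratios of group means were computed for 3 comparisons with no pseudocount (Python 3.11.15, pandas 2.3.3, NumPy 2.4.6, Matplotlib 3.10.9), after the calculation was tested on simulated data. The background was the 11784 genes whose mean over the groups reached 1 (detected genes), and a gene counted as higher or lower at 2-fold. Lengths and exons came from GENCODE M21 on GRCm38, with which start and end agree for 8 of the 10 markers (not Adgre1 and Csf1r) once 1 was taken from the deposited end. Positions printed are those of the deposited table with that end. The median mean was 4.73 in the shortest eighth of protein-coding genes and 11.4 in the longest, so the values were treated as not divided by length. The markers and gene lists were chosen with earlier results of these data known. Genes named were the 10 markers, Scd2, Csf1, Il34, the highest and lowest gene of each list with a mean of at least 1 in each comparison, and the 5 genes nearest to the markers' medians. Any other gene is said to be named after its values were seen, except Lyz2, named for its part in a sum, and some genes that the rule names are not reported here. Alternatives were pseudocounts of 0.1 and 1, a 1.5-fold threshold, centering on the median gene, no filter on low means, and leaving out Adgre1, Csf1r and Mrc1.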

Additional observations from a re-analysis of the deposited data

How the results depend on the processing

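No paired analysis was possible because the table gives 1 mean per group. For the same reason leaving out each mouse was not run, and a bound on the spread between mice was not given. Of 90 alternative values of single markers, 88 stayed within 1.5-fold of the reported ratio and 0 turned direction. The exceptions were Marco with a pseudocount of 1, whose log2 ratio to control liver was 3.06 in Scd2f/f TAL and 2.65 in CC TAL, since its control mean lies under 1. All 15 alternative medians of the markers stayed within 1.5-fold. Those that kept only markers with a mean of at least 1 could not differ, since all 10 markers reached it. Lowering the threshold to 1.5-fold made 1 marker, Cd163, higher in CC TAL than in Scd2f/f TAL. The background was also taken as all genes of the table, low ones included. Of these, 9.37% were higher and 4.69% lower by at least 2-fold in Scd2f/f TAL than in control liver. On that background 1.82% were higher and 4.07% lower in CC TAL than in Scd2f/f TAL. Against control liver, 6.41% were higher and 4.64% lower in CC TAL. With 1 mean per group, a difference smaller than the unknown spread between mice could not be recognized.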

Other observations

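Of the 7 T and B cell genes, 0 had a mean of at least 1 over the groups, and all 7 were higher in Scd2f/f TAL than in control liver, 5 by at least 2-fold. Cd8a, the T cell coreceptor, had means of 0.235 in control liver, 1.05 in Scd2f/f TAL and 0.302 in CC TAL, and was named after its values were seen. Of the 5 dendritic cell genes, 4 were in the table, and all 4 were higher in Scd2f/f TAL than in control liver and lower in CC TAL than in Scd2f/f TAL. Among them, Clec9a, a receptor for dead cells on cross-presenting dendritic cells, had means of 1.03, 1.48 and 1.15, and Zbtb46, a transcription factor of classical dendritic cells, 2.62, 3.35 and 3.31.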
